A study of Mus musculus with 6 samples.

Results

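The small ribosomal subunit of the mouse cytosol is described here through 31 genes, of 16403 in the deposited table, whose mRNA was measured by bulk sequencing in bone marrow LSK cells. The 31 are all rows whose symbol is Rpsa, or Rps with a number and at most a closing a, x or l. The members were taken by symbol and not by any measured value. The family itself was proposed with earlier results of these data known. LSK cells lack mature lineage markers and carry Sca-1 and Kit on their surface, and among them are the blood stem cells and the multipotent progenitors nearest to them. The LIP group had ligature-induced periodontitis, in which a thread tied around a molar gathers bacteria and inflames the gum, and the NL group had no ligature. Both groups were C57BL/6 mice with no transgene named in the labels, and marrow was taken on day 7. Each group had 3 libraries, and each library pooled the sorted cells of 3 mice, so differences between single mice cannot be seen.

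The cytosolic ribosome joins a small subunit, which holds the mRNA and reads its codons, to a large subunit, which links the amino acids. The small-subunit proteins are built around the 18S ribosomal RNA in fixed proportions, and losing a copy of the gene for any of several of them causes Diamond-Blackfan anemia in humans, a failure of red cell production in the marrow. Their mRNAs are short and abundant, and most begin with a terminal oligopyrimidine (TOP) tract, through which Larp1 and the mTOR pathway control how strongly they are translated. Blood stem cells are known for low protein synthesis relative to the progenitors they give rise to.

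Library totals lay between 17780853 and 18841103 counts, and 12564 genes were tested. The labelled cell type was checked on 11 marker genes of stem and progenitor cells, all of them detected, whose summed level was 2851 to 2890 CPM in LIP and 2757 to 2788 CPM in NL (counts scaled to library size with TMM factors). Of the 11, 3 were called higher, or 27.3%, against 14.1% of all tested genes. The summed level of the 15 tested markers of mature blood lineages was 297 to 317 CPM in LIP and 232 to 242 CPM in NL. Of these 15 markers, 8 were called higher and 1 lower in LIP, or 53.3% and 6.67%, against 14.1% and 15.8% of all tested genes. Among the 15, the neutrophil granule gene Ngp had 60.1 ± 1.88 CPM in LIP and 30.4 ± 3.42 CPM in NL (SD, n = 3 each). The groups also differed in heat shock mRNAs, with Hspa1b at 2.58 ± 0.588 CPM in LIP and 81.8 ± 0.895 CPM in NL. All 10 genes of the heat shock list were called lower, against 15.8% of all tested genes. Heat shock genes also respond to how cells are handled, and the part of handling or of mature cells in the ribosomal protein values was not tested.

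In LSK cells of LIP mice the mRNAs of the small subunit were lower as a family, by amounts between 10.7% and 26.2%. All 31 passed the test as lower (edgeR's quasi-likelihood test, adjusted p below 0.05), against 15.8% of all tested genes called lower and 14.1% called higher. None had a positive fold change, so none was higher at an unadjusted p below 0.05 either, or by DESeq2, which also called 31 lower against 11.1% of all genes. The median log2 fold change was -0.32, a level 19.6% below NL, beside a median of 0.00 over all tested genes. With an offset for the trend of counts on effective transcript length, 22 of the 31 were still called lower, against 13.7% of all tested genes, and the median was -0.12. Of genes outside the Rps and Rpl families with a mean of at least 100 CPM, that offset left 28.0% called lower at 250 to 500 bases. At 500 to 1000 bases it left 25.2%. Rps2, Rps6, Rps9, Rps12, Rps18, Rps19, Rps23, Rps26 and Rps29 missed the threshold with that offset. With a further offset for GC content 21 members were called and the median was -0.14. The members ranged from -0.44 for Rps27 to -0.16 for Rps9, and none reached a fold of 1.5. Their SD was 0.08 on the log2 scale, beside a median SE of 0.04 for a single member. In all 31 the highest of the 3 LIP libraries lay below the lowest of the 3 NL libraries, which 21.0% of all tested genes did. In bulk samples, fewer cells that express a gene and less of its RNA per cell cannot be told apart.

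Taken as a share of each library, the 31 genes held 4.01%, 3.78% and 3.99% of all counts in the LIP libraries and 4.54%, 4.69% and 4.69% in the NL libraries. The mean was 3.92% ± 0.128 in LIP and 4.64% ± 0.0903 in NL (SD, n = 3 each). In TPM, which divides by transcript length, they held 11.0% ± 0.271 in LIP and 12.5% ± 0.0659 in NL. With each gene set against its mean in NL, the median member stood at -0.25, -0.39 and -0.29 on the log2 scale in LIP replicates 1, 2 and 3, and at -0.04, 0.02 and 0.02 in NL replicates 1, 2 and 3. LIP replicate 2 was the lowest of the LIP libraries, NL replicate 1 was the lowest of the NL libraries, and the groups did not overlap. The 31 genes lie on 13 chromosomes, 9 of them on chromosome 7.

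**Figure D1:**
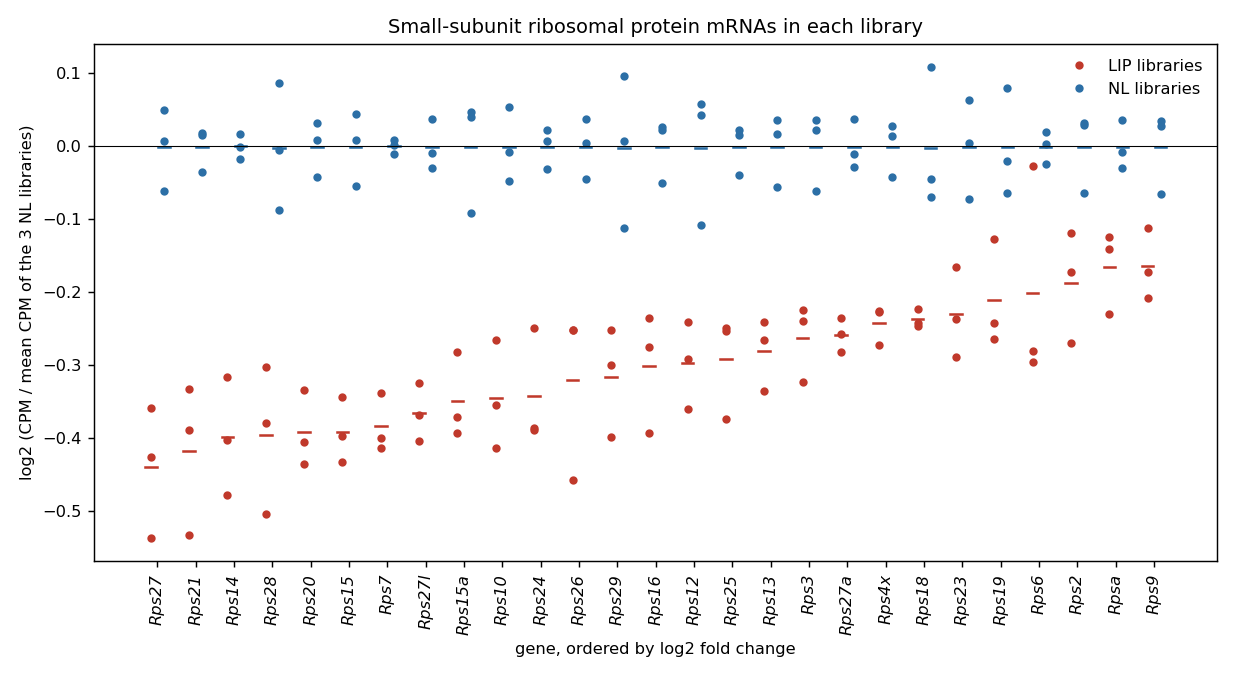
Level of each small-subunit gene in each library, as log2 of its CPM over the mean CPM of the 3 NL libraries, with the 27 genes drawn ordered from the lowest to the highest log2 fold change. Red points are the LIP libraries and blue points the NL libraries, short bars are group means, and in every gene drawn the red points lie below the blue ones, by the least in Rps6.

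The lowest fold change belonged to Rps27, a zinc-binding protein of the subunit's platform side (GRCm38 chromosome 3, 90212667 to 90213648). It had 816, 722 and 779 CPM in LIP replicates 1, 2 and 3, against 1083, 1052 and 1003 CPM in NL replicates 1, 2 and 3. The LIP libraries were all lower and LIP replicate 2 was the lowest, with a log2 fold change of -0.44 ± 0.04 (SE) and an adjusted p of 1.38e-12. Rps21, a body protein that binds next to Rpsa, had 465, 405 and 448 CPM in LIP and 571, 593 and 592 CPM in NL. The groups were apart, LIP replicate 2 was again lowest, and the log2 fold change was -0.42 ± 0.04.

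Rps14, a platform protein whose human counterpart is haploinsufficient in a form of myelodysplastic syndrome, had 1298, 1160.1 and 1222 CPM in LIP and 1615, 1635 and 1597 CPM in NL. Its NL values were close together and all its LIP values lay below them, with a log2 fold change of -0.40 ± 0.04. Rps28, a small head protein near the path where mRNA leaves the ribosome, had 563, 516 and 594 CPM in LIP and 689, 777 and 729.7 CPM in NL. Its replicates were more spread than those of Rps14 but did not overlap, and the log2 fold change was -0.39 ± 0.05. Rps20, a head protein, had 981, 914 and 933 CPM in LIP and 1201, 1243 and 1264 CPM in NL, with a log2 fold change of -0.39 ± 0.03. These 5 genes together span both the head and the body of the subunit.

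At the other end stood Rps9, a body protein near the mRNA entry path. It had 1814, 1769 and 1890.5 CPM in LIP and 1953, 2094 and 2084 CPM in NL. The groups were apart by less than in Rps27, and the log2 fold change was -0.16 ± 0.04 with an adjusted p of 0.000266. With the length offset Rps9 turned to 0.0031 (adjusted p 0.958), and with the length and GC offset it stood at -0.03 (adjusted p 0.55). Rpsa, also known as the laminin receptor and, in humans, a gene of inherited absence of the spleen, had 4649, 4369.6 and 4702 CPM in LIP and 5022, 5098 and 5255 CPM in NL. It held the most counts of all members, LIP replicate 2 was the lowest library, and the log2 fold change was -0.16 ± 0.04 with an adjusted p of 0.00048.

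Rps2, which lines the mRNA entry channel, had 2609.6, 2439 and 2707 CPM in LIP and 2812, 3001 and 3005 CPM in NL, a log2 fold change of -0.19 ± 0.04. The gap between its groups was smaller than the range of the 3 NL libraries. Rps6, the member that S6 kinases phosphorylate downstream of mTOR, had 118, 99.2 and 98.1 CPM in LIP and 122, 118 and 121 CPM in NL. Here LIP replicate 1 lay almost at the NL level, and the log2 fold change of -0.20 ± 0.06 had an adjusted p of 0.0241, the highest of the family. Without LIP replicate 2, NL replicate 1 or NL replicate 3 that adjusted p was 0.0705, 0.0991 and 0.0582, and Rps6 was no longer called.

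Per unit of length, the most abundant member was Rps26, which touches the mRNA where it leaves the ribosome. It averaged 7064 ± 468 TPM in LIP and 8024 ± 397 TPM in NL (SD, n = 3 each). Rps24, a body protein, averaged 5827 ± 272 TPM in LIP and 6828 ± 109 TPM in NL. Rps15, a head protein close to the site where transfer RNA enters, averaged 5575 ± 124 TPM in LIP and 6662 ± 158 TPM in NL. In both groups the order of levels was Rps26, Rps24, Rps15 and Rps27, and the last 3 of these lay within their spread of each other in NL. Over the family the median was 3710.0 TPM in LIP and 4269.9 TPM in NL. In TPM, 25 members kept the LIP libraries below the NL libraries, which 5.96% of all tested genes did, and Rps23, Rps19, Rps6, Rps2, Rpsa and Rps9 overlapped.

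The 4 members with the lowest TPM were Rps20, Rps15a, Rps27l and Rps6, and the order among them rests on how the files assign length and reads. Rps20 averaged 501 ± 11.0 TPM in LIP and 602 ± 14.3 TPM in NL, and Rps15a averaged 282 ± 7.78 TPM in LIP and 329 ± 16.5 TPM in NL. The effective length that the deposited counts and FPKM imply was 3363 bases for Rps20 and 5055 bases for Rps15a. GENCODE M21 lists transcripts of 512 to 3706 bases for Rps20 and of 250 to 5179 bases for Rps15a, with medians of 582 and 637 bases, so TPM divides both by nearly their longest form. Their CPM does not use length.

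Several members are known for Diamond-Blackfan anemia in humans, and 5 of these are described here: Rps7, Rps10, Rps19, Rps24 and Rps26. All 5 were called lower, with log2 fold changes from -0.38 to -0.21. With the length offset Rps26 at -0.07 (adjusted p 0.082) and Rps19 at -0.05 (adjusted p 0.228) were no longer called. Rps7, a body protein that also binds Mdm2, had 1789.5, 1699 and 1715 CPM in LIP and 2244, 2264 and 2276 CPM in NL, a log2 fold change of -0.38 ± 0.03 (adjusted p 1.53e-13). The distance between the group means was several times the SD within either group.

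Rps10, a head protein that Zfp598 marks with ubiquitin on collided ribosomes, had 1019, 919.8 and 958 CPM in LIP and 1185, 1219 and 1271 CPM in NL, a log2 fold change of -0.34 ± 0.04. Rps24 had 2196, 1997 and 1992 CPM in LIP and 2622, 2650.1 and 2554 CPM in NL, a log2 fold change of -0.34 ± 0.04. Rps26 had 1487, 1290.2 and 1487 CPM in LIP and 1818, 1717 and 1777 CPM in NL, a log2 fold change of -0.32 ± 0.04. All 3 kept the groups apart, with LIP replicate 2 below the other LIP libraries in Rps10 and Rps26.

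Rps19, the gene most often mutated in Diamond-Blackfan anemia, moved least of the 5. It had 803, 791 and 870.0 CPM in LIP and 937, 1004 and 909 CPM in NL. The highest LIP library lay just under the lowest NL library, and the log2 fold change was -0.21 ± 0.04 with an adjusted p of 2.03e-05. GENCODE M21 names 14 pseudogenes after Rps19, 24 after Rps12, 11 after Rps2 and 9 after Rpsa, and reads from such copies could have been counted with or lost from these genes.

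Sorted by place in the subunit, the 14 head proteins had a median log2 fold change of -0.30 and the 16 proteins of the body and platform a median of -0.32, all of them called lower. Further head members ran from Rps15 at -0.39 ± 0.04 (1353 ± 42.4 CPM in LIP, 1773 ± 60.9 CPM in NL) to Rps18, which touches the large subunit, at -0.24 ± 0.04 (1017 ± 8.69 CPM in LIP, 1199 ± 81.4 CPM in NL). Between them lay Rps29, a zinc-binding protein, at -0.32 and Rps12 of the beak at -0.30. Rps3, at the mRNA entry and also known in DNA repair, stood at -0.26, as did Rps27a, which is made as a fusion with ubiquitin. Of the body, Rps15a stood at -0.35 and Rps13 at -0.28. Rps4x, which mouse and human carry on the X chromosome, had 2163, 2235 and 2231 CPM in LIP and 2537, 2637 and 2662 CPM in NL, a log2 fold change of -0.24 ± 0.04. The groups were apart, and here LIP replicate 1 was the lowest LIP library. Its mouse paralog Rps4l was not among the 16403 genes under that symbol.

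The deposited counts of 27 members were whole numbers in all 6 libraries, and those of 4 were not, which occurs when reads are divided between genes or copies. The 27 had a median log2 fold change of -0.32, with all of them called lower. Of the 4, Rps16, a head protein whose tail reaches the transfer RNA, had 1504 ± 84.6 CPM in LIP and 1849.8 ± 55.2 CPM in NL, and Rps25, a head protein that some viral RNAs need for translation, had 675 ± 32.8 CPM in LIP and 825 ± 19.3 CPM in NL. Rps23, a protein of the decoding centre, had 1003 ± 43.4 CPM in LIP and 1176 ± 55.4 CPM in NL. With Rps6 they had log2 fold changes of -0.30, -0.29, -0.23 and -0.20 in the order named. In TPM Rps6 was the lowest member, with 144 ± 13.9 TPM in LIP and 151 ± 3.48 TPM in NL, while in CPM Rps27l was lower. The effective length of Rps6, 1308 bases as derived from the deposited counts and FPKM, exceeds its longest GENCODE transcript of 1128 bases, and its TPM rests on that length. Its CPM, which does not use length, was also the lowest after Rps27l, at 105 ± 11.3 in LIP and 120 ± 1.86 in NL. GENCODE M21 names 4 pseudogenes after Rps6.

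Rps27 has a paralog, Rps27l, that takes the same place in the ribosome and is induced by Trp53. The coding sequences of both are printed in full, since they show how far reads of either gene can be told apart. Capitals mark the 61 of 255 positions at which they differ, read from GENCODE M21 on GRCm38.
Rps27, chromosome 3, 90212725 to 90213615, minus strand: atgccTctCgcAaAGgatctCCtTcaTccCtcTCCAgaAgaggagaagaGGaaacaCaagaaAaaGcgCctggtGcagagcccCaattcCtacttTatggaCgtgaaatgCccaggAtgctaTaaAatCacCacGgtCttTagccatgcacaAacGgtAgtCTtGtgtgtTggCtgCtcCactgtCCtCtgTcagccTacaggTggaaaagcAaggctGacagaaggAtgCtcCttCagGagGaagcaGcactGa
Rps27l, chromosome 9, 66946175 to 66949357, plus strand: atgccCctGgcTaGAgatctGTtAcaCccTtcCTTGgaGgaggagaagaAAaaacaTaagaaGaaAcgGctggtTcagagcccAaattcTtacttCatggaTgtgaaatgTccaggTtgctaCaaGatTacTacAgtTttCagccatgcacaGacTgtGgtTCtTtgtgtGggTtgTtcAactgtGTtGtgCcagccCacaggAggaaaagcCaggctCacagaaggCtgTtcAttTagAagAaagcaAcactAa
They are 76.1% identical. Between the annotated transcripts that these sequences come from, the longest shared run was 11 bases, against reads of 100 bases. GENCODE M21 lists 9 transcripts for Rps27 and 6 for Rps27l, and the other forms were not compared.

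Rps27l was far less abundant, with 52.8, 49.9 and 51.2 CPM in LIP and 64.7, 67.8 and 65.6 CPM in NL. The groups did not overlap and the log2 fold change was -0.37 ± 0.05 (adjusted p 2.72e-09). The CPM of Rps27l over that of Rps27 was -3.95, -3.85 and -3.93 on the log2 scale in LIP and -4.06, -3.96 and -3.93 in NL. The mean ratio was 6.65% in LIP and 6.32% in NL. The libraries lay close together, with LIP minus NL at 0.07 and a two-sided exact permutation p of 0.2, where 3 libraries against 3 can give no p below 0.1.

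The fold changes of all genes in these libraries moved with transcript length, and the small-subunit mRNAs are short. Of the 31 members, 26 had an effective length under 1000 bases. Among genes outside the Rps and Rpl families, the median log2 fold change was -0.24 for the 162 genes of 250 to 500 bases, -0.13 for the 824 genes of 500 to 1000 bases, -0.04 for the 2936 genes of 1000 to 2000 bases, 0.01 for the 5149 genes of 2000 to 4000 bases and 0.04 for the 2969 genes of 4000 to 8000 bases. In the same bands of 250 to 500 and of 500 to 1000 bases, the members had medians of -0.34 and -0.29, with 13 genes in each. All 13 members of each band were called lower, beside 54.9% and 38.8% of the other genes there. Restricted to other genes with a mean of at least 100 CPM, those shares were 84.0% of 25 genes and 71.5% of 123 genes, with medians of -0.26 and -0.15.

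**Figure D2:**
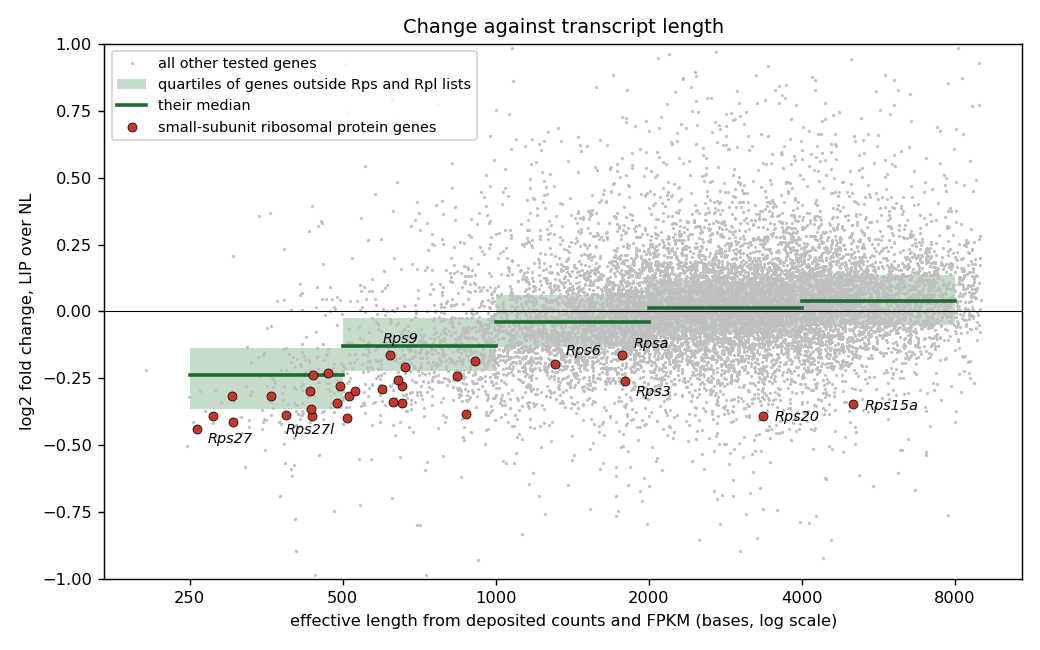
Log2 fold change, LIP over NL, against the effective length in bases (log scale) that the deposited counts and FPKM imply. Red points are the 31 small-subunit genes, grey points are other tested genes, and green bars give the median and quartiles of genes outside the Rps and Rpl families in 5 length bands. The green medians go from -0.24 in the shortest band to 0.04 in the longest, and 46 genes lie beyond the axis limits of -1 and 1.

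Across the 31 members the log2 fold change and log2 effective length had a Pearson r of 0.271 and a Spearman rho of 0.436. Without Rps20 and Rps15a, whose lengths in the files are those of long forms, r was 0.637 and rho 0.616 over 29 genes. These are descriptions over genes that share the same 6 libraries. Rps3, Rpsa and Rps6, with effective lengths of 1793, 1775 and 1308 bases, stood among the smaller falls. Their GENCODE median lengths are only 952, 914.5 and 758.5 bases, and they were kept in both correlations.

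An offset per library for the trend of counts on effective length gave the members a range from -0.41 for Rps20 to 0.00 for Rps9. Of the 9 no longer called, Rps18 came to -0.02 (adjusted p 0.795). Apart from Rps20 and Rps15a, the members lowest with the offset were Rps7 at -0.27, Rps3 at -0.24 and Rps14 at -0.20. Rps7 too is given a long form, with 874 bases in the files beside GENCODE transcripts of 369 to 954 bases and a median of 420. Rps27, the lowest without an offset, came to -0.14 (adjusted p 0.000633). In the bands of 250 to 500 and of 500 to 1000 bases, 61.5% and 76.9% of the members were called lower with this offset. Their medians were -0.11 and -0.12. Other genes there with a mean of at least 100 CPM were called lower in 28.0% and 25.2%, with medians of -0.04 and -0.02.

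With the further offset for the GC content of the transcripts, the 21 members called lower stood against 12.3% of all tested genes. By limma on log2(TPM + 1), 24 members were called lower, against 4.3% of all tested genes. The median was -0.18, beside 0.11 over all tested genes. TPM divides a gene by nearly the same length in each library, 252 to 265 bases for Rps27, so it is not an offset for the length trend. The result with an offset depended on which length a gene was given. With an offset on the median length of a gene's GENCODE transcripts, an alternative chosen after seeing the data, all 31 were called lower, against 15.2% of all tested genes, with a median of -0.27. Under that offset the other genes of 250 to 500 bases in the files still had a median of -0.20, so it removed little of the trend on effective length. Called lower under all 3 offsets were 19 members, among them Rps3, Rps7, Rps14, Rps15, Rps24, Rps27 and Rpsa. Of all tested genes, at most the 12.3% called lower with the length and GC offset can be lower under all 3. The 3 offsets are not separate checks, since the GC offset was added to the length offset and the GENCODE offset called all 31. Rps20 and Rps15a were also among the 19. Rps3 and Rpsa have 1793 and 1775 bases in the files, beside GENCODE medians of 952 and 914.5 bases. The offset on effective length moved Rps3 from -0.26 to -0.24 and Rpsa from -0.16 to -0.14. How far that offset moves a member depends on the length it is given. The share of the fall that belongs to length, and not to these genes, was not separated further.

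**Figure D3:**
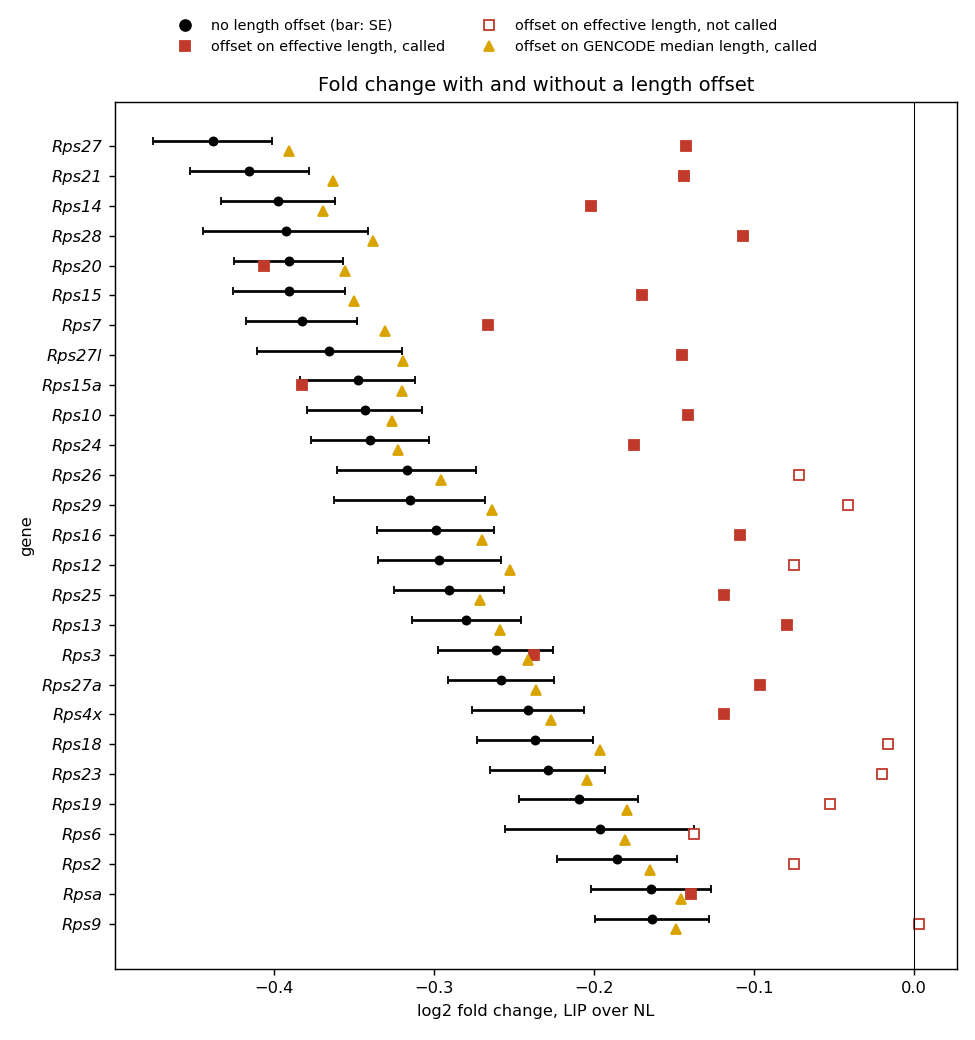
Log2 fold change, LIP over NL, of 27 small-subunit genes without a length offset (black, bar: SE), with the offset on effective length (red squares, open where not called) and with the offset on GENCODE median length (yellow triangles). The black points run from -0.44 to -0.16, the red squares have a median of -0.12 and cross 0 in Rps9, and the triangles stay near the black points.

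The promoters are described because the family moved together. RefSeq promoters (GRCm38.p6, 250 bases before to 50 after the start) were found for 23 of the 31 members, 28 promoters in all. Promoters of the 2 lowest and the 2 highest members are shown from 45 bases before to 15 after the start on the gene's strand, except that Rps21 has another start that is not printed. Capitals mark a run of at least 6 pyrimidines that touches the 10 bases on either side of the start, where a TOP tract would lie.
Rps27, chr3:90213634-90213693, minus strand: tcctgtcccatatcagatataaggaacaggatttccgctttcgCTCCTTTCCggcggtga
Rps21, chr2:180257334-180257393, plus strand: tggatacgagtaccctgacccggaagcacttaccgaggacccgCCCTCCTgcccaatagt
Rps9, chr7:3703996-3704055, plus strand: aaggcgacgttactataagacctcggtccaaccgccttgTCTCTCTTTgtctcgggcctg
Rpsa, chr9:120127721-120127780, plus strand: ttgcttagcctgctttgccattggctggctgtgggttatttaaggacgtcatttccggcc
Rps27, Rps21 and Rps9 had such a run and Rpsa had none in this window. A run was found in 15 of the 28 member promoters, 53.6%, and in 29.2% of all 32851 promoters. The core motif of ETS factors, CCGGAAG on either strand, was in 11 of the 28, 39.3%, and in 8.86% of all promoters. Its reverse strand CTTCCGG can share bases with a pyrimidine run. The GC box GGGCGG was in 53.6% against 35.7%, the YY1 core AAGATGGC in 7.14% against 2.75%, and the TATA box TATAAA in 7.14% against 13.6%. These matches describe letters in a window around an annotated start, and they say nothing about binding.

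Small-subunit proteins with other names were also lower. Rps3a1 had 2083, 2037 and 1986 CPM in LIP and 2363, 2489 and 2389 CPM in NL, a log2 fold change of -0.25 ± 0.04. Fau, which encodes the subunit protein fused to a ubiquitin-like domain, had 551, 536 and 582 CPM in LIP and 645, 706 and 640.1 CPM in NL, a log2 fold change of -0.26 ± 0.04. Rack1, the signalling scaffold at the back of the head, stood at -0.19 ± 0.04, with 2160.5 ± 97.1 CPM in LIP and 2464 ± 119 CPM in NL. All 3 were called lower, and with the offset on effective length Rps3a1 and Rack1 still were. Rps27rt was not among the 16403 genes under that symbol.

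The genes of the large subunit (Rpl) gave similar values. Of 46 tested, 45 were called lower, or 97.8% beside 15.8% of all tested genes, with a median of -0.31. With the offset on effective length 32 were called lower, or 69.6% beside 13.7%, with a median of -0.14. Rplp2 was the exception, at -0.31 with an adjusted p of 0.101, and Rpl32 was lower by -0.39 ± 0.03. Another list held 25 tested mRNAs that carry a TOP tract but encode other proteins, 2 of which (Fau and Rack1) are counted above. Of the 25, 18 were called lower, or 72% beside 15.8% of all tested genes, and none higher (median -0.19). Among them the initiation factor subunit Eif3e, at 355 ± 13.2 CPM in LIP and 457 ± 2.62 CPM in NL, had a log2 fold change of -0.36 ± 0.03, which the offset on effective length left at -0.32. Eef1a1, the elongation factor, stood at -0.13, and the poly(A)-binding protein gene Pabpc1 at 0.06 was not called. With the offset 15 of the 25 were called lower and 1 higher. These are 60% and 4%, beside 13.7% and 13.1% of all tested genes with that offset.

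Lists of the cytosolic ribosome's partners gave other counts. Of 29 mitochondrial small-subunit genes (Mrps), 13 were called lower, or 44.8% beside 15.8% of all tested genes, and none higher. Their median was -0.12, and among them Mrps33 stood at -0.33 ± 0.05. With the offset on effective length 4 were lower and 3 higher, with a median of -0.01. These are 13.8% and 10.3%, near the 13.7% and 13.1% of all tested genes with that offset. Of 57 genes for the assembly of the small subunit, 11 were called lower and 6 higher, with a median of 0.01. These are 19.3% and 10.5%, near the 15.8% and 14.1% of all tested genes. The smallest p-values in the list were those of Utp11, a part of the early assembly complex, at -0.30 ± 0.05, and Nop58, a core protein of the particles that methylate ribosomal RNA, at -0.22 ± 0.03. Of 25 genes that control TOP mRNAs or ribosome production, 4 were called lower and 6 higher, with a median of 0.00. These are 16% and 24%, beside the same 15.8% and 14.1%. Larp1, which binds TOP tracts, was higher at 336 ± 9.17 CPM in LIP and 277 ± 7.84 CPM in NL, a log2 fold change of 0.27 ± 0.03, or 0.23 with the offset on effective length. Eif4ebp2, a repressor of cap-dependent translation that mTOR switches off, was higher by 0.26 ± 0.03, and Mycn, a driver of ribosome production, was lower at 51.4 ± 2.64 CPM in LIP and 63.7 ± 1.45 CPM in NL, a log2 fold change of -0.31 ± 0.05.

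Of 18 tested genes for ribosome quality control and ribosome stress, none was called lower and 3 were called higher, Hbs1l, Gtpbp2 and Trp53, by 0.16, 0.16 and 0.09 on the log2 scale. The 3 are 16.7% of the list, near the 14.1% of all tested genes. Of 88 tested nuclear genes of the respiratory chain, a set of short and abundant mRNAs outside translation, 65 were called lower and none higher. The 65 are 73.9%, beside 15.8% of all tested genes, and the median was -0.22. With the offset on effective length 30 were lower and 2 higher, with a median of -0.07, beside -0.12 for the small subunit. The 30 and 2 are 34.1% and 2.27%, beside 13.7% and 13.1% of all tested genes with that offset. Of genes outside the Rps and Rpl families with a mean of at least 100 CPM, 28.0% were lower at 250 to 500 bases. At 500 to 1000 bases the share was 25.2%, and respiratory chain genes were not left out of either share. Where a list above had no gene called in a direction by edgeR, none reached an unadjusted p below 0.05 in that direction except 1 mitochondrial gene that was higher, and DESeq2 called none there. No difference between these lists was tested.

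**Figure D4:**
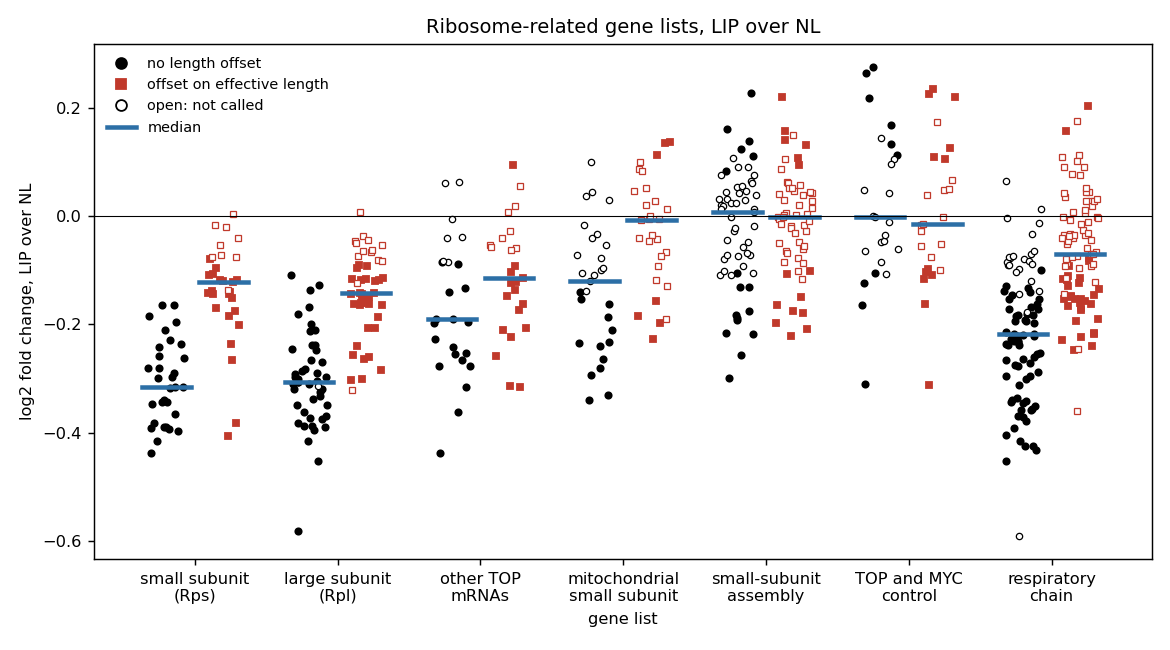
Log2 fold change, LIP over NL, of the genes in 7 lists, without a length offset (black circles) and with the offset on effective length (red squares), filled where called and open where not, with the list median as a blue bar. The small and large subunit have medians of -0.32 and -0.31, and with the offset -0.12 and -0.14, while the median of the assembly genes is near 0 both ways.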

How the data were processed

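Bone marrow LSK cells of 3 LIP and 3 NL libraries were sequenced after polyA selection as paired reads of 100 bp, with a mean of 45.0 M in each library according to the labels' protocols. The submitters' processing notes name STAR, HTSeq and GRCm38, and which tool estimated the counts was not given in the sources used here. The deposited table held the authors' estimated counts, which were partly not whole, and the authors' deposited FPKM and TPM values for each library. Its 6 columns of group means were not used. Of the 16403 genes, 13481 had whole counts in all libraries.

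The counts were rounded, because the planned test takes whole numbers, then filtered with filterByExpr and scaled with TMM factors in edgeR 4.0.16 (R 4.3.3), and 12564 genes were tested. LIP was compared with NL by the quasi-likelihood test with robust estimation and Benjamini-Hochberg adjustment across all genes tested. Genes with an adjusted p below 0.05 count as called. Log2 fold changes (LIP over NL) carry their SE, and CPM and TPM are means ± SD over 3 libraries. At this depth 3 counts correspond to 0.159 to 0.169 CPM, which covers counting error only. Effective length was derived from the deposited counts and FPKM, and the length trend was a lowess curve with span 0.3 fitted outside the Rps, Rpl and respiratory chain genes. The steps were tested on simulated data.

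The alternatives were DESeq2 1.42.0, limma 3.58.1 (voom, and log2(TPM + 1)), other scalings, filters and thresholds, a replicate block, offsets for length and GC content, whole counts only, and leaving out each library. The rule for named genes accounted for every member and set those without whole counts apart. For values per library it took Rpsa, Rps4x, Rps27, Rps27l, the 5 lowest and 5 highest fold changes, the 3 highest TPM and the anemia genes. From each other list it took up to 4 called genes with the smallest p, and always Rps3a1, Fau and Rack1. Eef1a1, Pabpc1 and Rplp2 are not covered by it, and their values were known when they were picked. Single values of 4 members are not reported here, though they stay in the counts and medians. The gene family and the lists were proposed with earlier results of these data known, and the members were then taken by symbol alone. Gene positions are from RefSeq on GRCm38.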

Additional observations from a re-analysis of the deposited data

How the results depend on the processing

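The fall of the small-subunit mRNAs kept its direction in every alternative except for Rps9, which turned to 0.0031 with the length offset and to 0.0033 with the length offset and the replicate block. The median of the 31 members, -0.32 as reported, was -0.12 with the length offset, -0.12 with the length offset and replicate block, -0.14 with the length and GC offset, and -0.18 by limma on log2(TPM + 1), a scale on which the median of all genes moved to 0.11. With the replicate block alone the median was -0.31. The deviations of same-numbered libraries had correlations of 0.021, -0.005 and -0.105, which show no pairing by number. With 3 libraries a group they cannot exclude a pairing, and the replicate block called 3729 genes. Leaving out each library in turn gave 30 to 31 members called lower and 0 higher, a median between -0.35 and -0.27, and 41 to 44 Rpl genes lower and 0 higher. Over the same fits 1550 to 1807 genes were called lower, 1437 to 1590 higher and 2987 to 3397 either way, the Rps share of counts differed by -0.767 to -0.641 percentage points, and the log2 ratio of Rps27l over Rps27 by 0.03 to 0.10.

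Over all genes, 3760 were called, 1984 lower and 1776 higher. DESeq2 called 2376, with 1285 lower and 1091 higher, and gave 945 genes no adjusted p. Scaling by total counts alone moved the split to 1301 lower and 2756 higher, and limma on log2(TPM + 1) to 540 lower and 4568 higher, while an adjusted p below 0.01 left 1148 higher. The cause of these shifts was not tested. All 31 members stayed called lower under the other scalings and filters, DESeq2 and limma-voom. With 3 libraries a group, exact tests cannot go below 0.1.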
